A study of Mus musculus with 12 samples.

Results

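Cerebella of heterozygous Atxn1154Q/2Q knock-in mice were compared with cerebella of wild-type mice, both given vehicle only. The 4 knock-in libraries are called Het-DMSO (animals 409, 411, 420 and 429) and the 4 wild-type libraries Wt-DMSO (413, 425, 426 and 431). They were chosen by their titles and make up 8 of the 12 libraries of the study. The other 4, knock-in mice given the compound Hit 2 in the same vehicle (Het-Hit2), entered the shared gene filter, scaling and estimate of spread, and some side-by-side levels. One library was made per mouse.

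As that name has it, 1 Atxn1 allele codes for a long run of glutamines and the other for 2. The knock-in allele sits at the mouse's own Atxn1 locus, so every cell that uses Atxn1 carries it. Het-DMSO and Wt-DMSO mice alike were injected with dimethyl sulfoxide (DMSO, under 4 ml/kg) into the peritoneum daily for 5 days, rested for 2 days and injected for 5 days more, between 18 and 20 weeks of age. All mice were under urethane and perfused with buffered saline before the cerebellum was taken. No group went without DMSO, so nothing here separates the genotype from the genotype under DMSO.

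Spinocerebellar ataxia type 1 (SCA1) is caused by an expanded glutamine tract in ataxin-1, a chromatin-associated protein that binds the repressor Capicua, the nuclear receptor RORA and 14-3-3 proteins. Purkinje cells, the only output neurons of the cerebellar cortex, are the cells best known to suffer in the disease. They receive input from granule cells and climbing fibres, and signal through phospholipase C beta, the IP3 receptor and calcium released from internal stores.

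The stretches around the start of 3 genes are printed because these genes had the smallest adjusted p in the fit without libraries 409 and 411 described below. Each runs from 250 bases before to 50 after the start, 5′ to 3′, with CG pairs in capitals, and is taken from RefSeq on build GRCm38.p6. Myo15 (chr11:60469089-60469388, plus strand) was lower in Het-DMSO, as was Igfbp5 (chr1:72874816-72875115, minus strand). Slc44a5 (chr3:153973186-153973485, plus strand) was higher.
Myo15: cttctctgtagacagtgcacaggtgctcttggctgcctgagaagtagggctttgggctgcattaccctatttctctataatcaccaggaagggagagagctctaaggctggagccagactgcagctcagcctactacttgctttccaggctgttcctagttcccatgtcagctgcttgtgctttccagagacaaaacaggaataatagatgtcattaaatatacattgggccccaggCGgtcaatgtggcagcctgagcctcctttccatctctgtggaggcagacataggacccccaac
Igfbp5: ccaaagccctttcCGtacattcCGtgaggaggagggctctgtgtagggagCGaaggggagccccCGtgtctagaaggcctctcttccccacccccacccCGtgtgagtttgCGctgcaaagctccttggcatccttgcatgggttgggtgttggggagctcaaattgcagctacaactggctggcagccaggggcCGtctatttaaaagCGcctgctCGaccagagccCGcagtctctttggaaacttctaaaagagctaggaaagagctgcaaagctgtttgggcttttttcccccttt
Slc44a5: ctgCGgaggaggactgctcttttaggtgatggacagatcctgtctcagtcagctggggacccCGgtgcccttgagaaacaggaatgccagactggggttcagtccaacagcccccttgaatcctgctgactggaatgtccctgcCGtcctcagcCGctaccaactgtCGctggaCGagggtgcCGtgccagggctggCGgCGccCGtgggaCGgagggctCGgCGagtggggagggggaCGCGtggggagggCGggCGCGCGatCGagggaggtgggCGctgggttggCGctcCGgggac
Myo15 held 1 CG pair, Igfbp5 10 and Slc44a5 23, against a median of 7 (quartiles 3 and 20) over 32851 such windows. Capicua binds the octamers TGAATGAA and TGAATGGA, which occur on either strand in 1.30% and 1.21% of all windows. The RORA response element occurs in 0.219%. RefSeq windows were found for 14 of the 18 genes that passed the threshold in that fit, and none of their 17 windows held any of the 3 motifs. Motifs this rare would be absent from most sets of 17 windows, so their absence here says nothing of these genes.

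Reads assigned to genes ranged from 15855751 (420) to 45265719 (409). Of the Het-DMSO libraries, 409 and 411 stood apart from each other and from the rest. The mitochondrial share of gene reads was 0.0795% in 409, against 1.88% to 2.53% in the other 7 libraries. The summed level of 17 granule cell genes was 491 CPM (read counts scaled to TMM-adjusted library sizes) in 411, against 8513 to 13324 CPM in the other 7. Among the defining granule cell genes, Fat2 had 2.57 CPM and Gabra6 0.606 CPM in 411, where the Wt-DMSO means were 2286 and 323 CPM. The same library had 211 CPM summed over 8 midbrain genes, against 15.8 to 27.4 CPM in the other 7 and 16.4 to 68.7 CPM in Het-Hit2, and 7099 CPM over 13 oligodendrocyte genes, against 1381 to 3676 CPM in the other 7 and 1395 to 5877 CPM in Het-Hit2. The library labelled Het-DMSO 411 thus had a small part of the summed level of granule cell genes, unevenly over the list. Calb2, Rbfox3 and Reln kept 93.1, 108 and 124 CPM in 411, where the Wt-DMSO means were 196, 474 and 1015 CPM. Wt-DMSO 425 had 22.3 CPM summed over 11 hindbrain Hox and related genes, against at most 0.501 CPM in the other 7. Wt-DMSO 425 and 426 had 1393 and 1464 CPM of Xist, and the other 6 libraries at most 0.271 CPM, so females occurred in the Wt-DMSO group only. Because of 409 and 411, counts and medians are given over all libraries and again without both, where Het-DMSO rests on 420 and 429 alone.

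**Figure D1:**
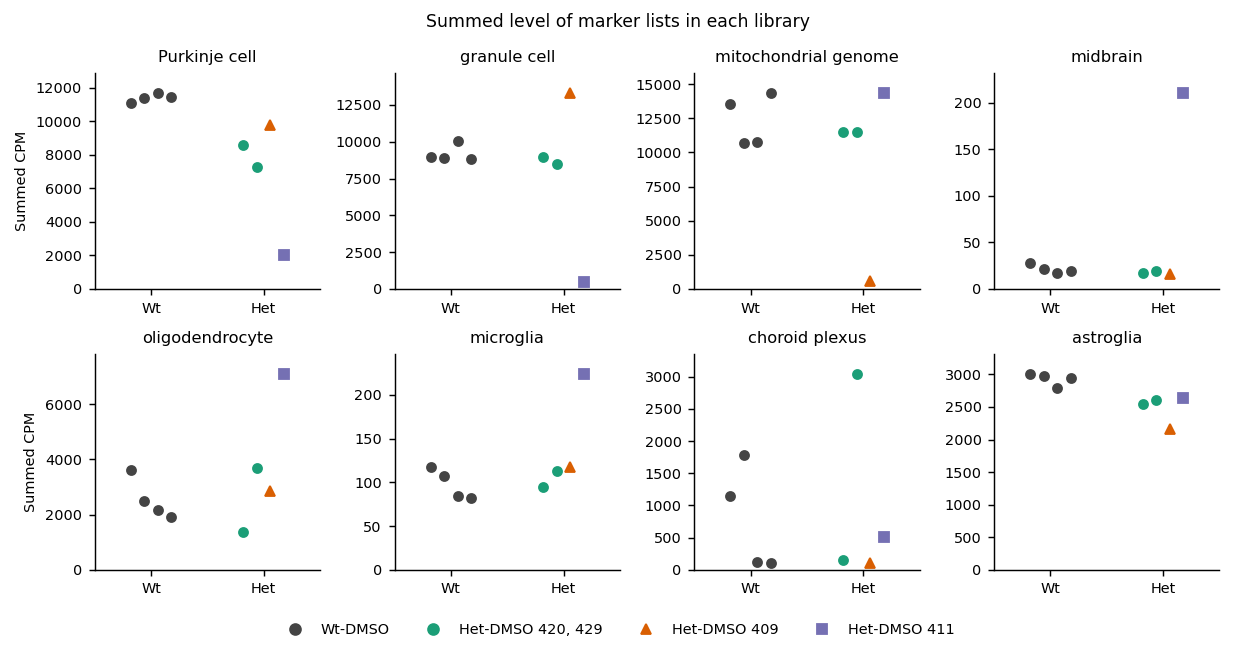
Summed level in CPM (vertical axes, linear, from 0) of 8 marker lists in each of the 8 libraries, 1 point per library, Wt-DMSO on the left and Het-DMSO on the right of each panel. Library 409 (triangle) stood near 0 for the mitochondrial genome, at 580 CPM, and 411 (square) at 491 CPM for granule cell genes and 211 CPM for midbrain genes.

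Atxn1, on chromosome 13, is the gene whose coding tract was changed. Its counts pool both alleles, and no read count tells the expanded allele from the other, so this measures the total only. Atxn1 was at 186, 172, 171 and 157 CPM in Het-DMSO 409, 411, 420 and 429, and at 159.5, 169, 174 and 142 CPM in Wt-DMSO 413, 425, 426 and 431. The groups overlapped. The difference in log2 level, Het-DMSO minus Wt-DMSO, was 0.09 (SE 0.12, edgeR adjusted p 0.765), and an exact two-sided permutation test gave p = 0.371. Without 409 and 411 it was 0.02 (SE 0.12), a difference smaller than the spread between replicates.

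Across all genes, 1 of 19378 passed the threshold (adjusted p under 0.05, edgeR quasi-likelihood test), the myosin gene Myo15, and it was lower in Het-DMSO. That is 0.00516% of the genes tested. Without 409 and 411, 18 of 20105 genes passed, 0.0895%, with 4 higher (0.0199%) and 14 lower (0.0696%). The size of these differences lay between 1.49 and 13 fold. The 4 that rose were Slc44a5, Kcnb2, Ankrd44 and Marcks. The 14 that fell were Myo15, Igfbp5, Clstn2, Ccdc63, Clmn, Ppp1r16b, Muc3a, Ywhah, Gm39465, Car9, Cntnap5b, 4930447F24Rik, Dnase2a and Gm15083. With sex as a covariate in that fit 6 passed, 1 higher (Slc44a5) and 5 lower (Myo15, Igfbp5, Clstn2, Ccdc63 and Muc3a). The other genes of the 18 then had an edgeR adjusted p of 0.0592 to 0.145. With DESeq2 and no covariate 180 passed (39 higher, 141 lower). The 18 include 15 protein-coding genes. Libraries 409 and 411 took no part in that fit, and for 17 of the 18 genes both lay on the same side of all 4 Wt-DMSO libraries as 420 and 429. These 18 were selected on 420 and 429 against the same Wt-DMSO libraries, so the selection fixes part of that separation and the count is a description. Where 420 and 429 lay above all Wt-DMSO libraries, 409 and 411 did too for 381 of 1667 genes (22.9%), and where they lay below, for 492 of 1823 (27%). The exception was Cntnap5b, a contactin-associated protein of the neuronal surface, at 42.7 CPM in 411 and 40.7 to 47.3 CPM in Wt-DMSO.

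**Figure D2:**
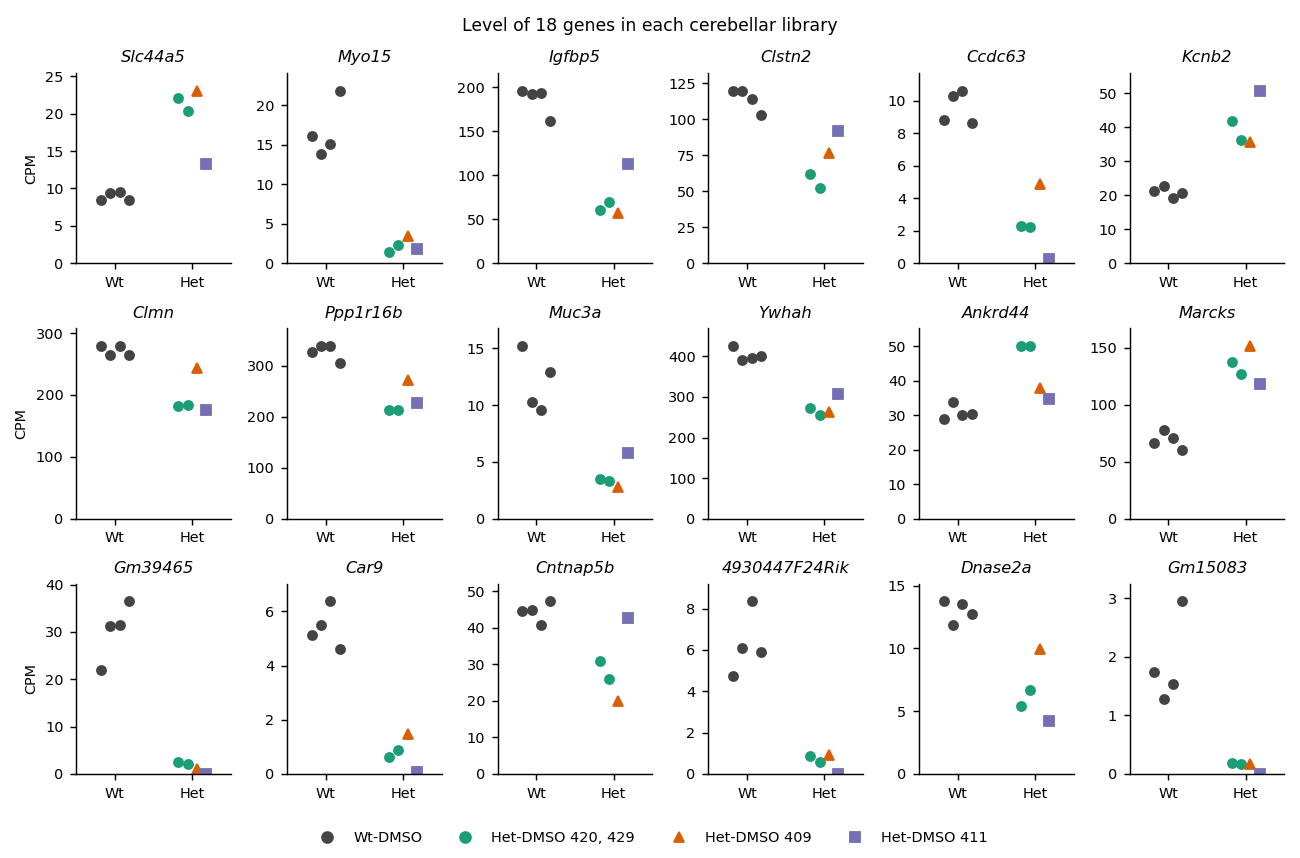
Level in CPM (vertical axes, linear, from 0) of the 18 genes that passed the threshold without 409 and 411, 1 point per library, with Wt-DMSO on the left and Het-DMSO on the right. In 17 of the 18 panels the 4 Het-DMSO points, 409 and 411 included, lie on one side of the 4 Wt-DMSO points. The other panel is Cntnap5b.

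Myo15 codes for an unconventional myosin known for building the stereocilia of inner ear hair cells. Myo15 was at 3.50, 1.77, 1.49 and 2.34 CPM in Het-DMSO 409, 411, 420 and 429, and at 16.1, 13.9, 15.0 and 21.8 CPM in Wt-DMSO 413, 425, 426 and 431. Every Wt-DMSO library exceeded every Het-DMSO library by a wide gap, in 24 to 588 reads per library. Over all libraries the log2 difference was -2.86 (SE 0.28, edgeR adjusted p 0.00507), and without 409 and 411 -3.11 (SE 0.27, adjusted p 0.00317). Het-Hit2 mice, which share the Wt-DMSO controls, had 2.39 to 3.52 CPM. Over its alternatives the adjusted p ran from 1.72e-19 (DESeq2) to 0.155 (edgeR, only the 8 libraries compared), and it was 0.0503 without 429.

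Slc44a5, a choline transporter-like protein of the membrane, was higher in Het-DMSO. Slc44a5 was at 23.1, 13.3, 22.0 and 20.4 CPM in Het-DMSO 409, 411, 420 and 429, and at 8.49, 9.40, 9.52 and 8.46 CPM in Wt-DMSO 413, 425, 426 and 431. Of the 4 knock-in libraries 411 came nearest to the wild type, and the groups did not overlap. The log2 difference was 1.13 (SE 0.17, edgeR adjusted p 0.0733) over all libraries and 1.23 (SE 0.10, adjusted p 0.00316) without 409 and 411. Over its alternatives the adjusted p from edgeR, DESeq2 and limma ran from 1.12e-06 to 0.546, and Het-Hit2 libraries had 18.0 to 20.9 CPM. Slc44a5 and Myo15 were the 2 genes that stayed past the threshold when any one of the 6 libraries left was removed as well, with adjusted p (edgeR) up to 0.0409.

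Igfbp5 binds insulin-like growth factors outside the cell and limits or prolongs their action. Igfbp5 was at 56.7, 113, 60.9 and 70.1 CPM in Het-DMSO 409, 411, 420 and 429, and at 196, 192, 193 and 161 CPM in Wt-DMSO 413, 425, 426 and 431. The highest Het-DMSO library was 411 and the lowest Wt-DMSO library 431, and the gap between them was wide. Its log2 difference came to -1.31 (SE 0.20, edgeR adjusted p 0.0824) with all libraries and to -1.51 (SE 0.14, adjusted p 0.00368) without 409 and 411. Over its alternatives the adjusted p ran from 3.03e-06 to 0.586, and Het-Hit2 had 62.2 to 85.5 CPM.

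Marcks, a substrate of protein kinase C that ties actin to the plasma membrane, was higher in Het-DMSO. Marcks was at 152, 118, 138 and 127 CPM in Het-DMSO 409, 411, 420 and 429, and at 66.1, 77.4, 70.7 and 60.3 CPM in Wt-DMSO 413, 425, 426 and 431. The groups did not overlap, and 409 was the highest. Its log2 difference came to 0.96 (SE 0.13, edgeR adjusted p 0.0733) with all libraries and to 0.93 (SE 0.13, adjusted p 0.0382) without 409 and 411. Its adjusted p ran from 3.04e-07 to 0.396 over its alternatives, and was 0.417 in the most affected of the fits with 1 more library removed. Het-Hit2 libraries had 93.0 to 132 CPM.

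Kcnb2, the delayed-rectifier potassium channel Kv2.2, was also higher. Kcnb2 was at 35.6, 50.8, 41.9 and 36.2 CPM in Het-DMSO 409, 411, 420 and 429, and at 21.2, 22.7, 19.1 and 20.8 CPM in Wt-DMSO 413, 425, 426 and 431. Library 411 had the highest level, and all 4 Het-DMSO libraries were above Wt-DMSO. Its log2 difference came to 0.97 (SE 0.13, edgeR adjusted p 0.0733) with all libraries and to 0.89 (SE 0.10, adjusted p 0.0157) without 409 and 411. Its adjusted p ran from 3.64e-08 to 0.449 over its alternatives. Ankrd44, a subunit that regulates protein phosphatase 6, had 34.8 to 50.2 CPM in Het-DMSO and 28.9 to 34.0 CPM in Wt-DMSO, so the groups barely parted. Over all libraries the log2 difference was 0.48 (SE 0.14, edgeR adjusted p 0.616), and without 409 and 411 0.69 (SE 0.09, adjusted p 0.0382).

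Of the genes that fell, Clstn2, a calsyntenin of the postsynaptic membrane, had 52.4 to 92.1 CPM in Het-DMSO and 103 to 120 CPM in Wt-DMSO. The log2 difference was -0.69 (SE 0.15, edgeR adjusted p 0.451) over all libraries and -1.004 (SE 0.09, adjusted p 0.00375) without 409 and 411. Ywhah codes for the eta form of 14-3-3, a family that binds phosphorylated ataxin-1. Ywhah was at 262, 309, 272 and 254 CPM in Het-DMSO 409, 411, 420 and 429, and at 426, 392, 397 and 401 CPM in Wt-DMSO 413, 425, 426 and 431. The highest Het-DMSO library was 411, still under the lowest of the wild type. The log2 difference was -0.56 (SE 0.11, edgeR adjusted p 0.259) over all libraries and -0.63 (SE 0.08, adjusted p 0.0312) without 409 and 411. With a sex covariate in the latter fit the edgeR adjusted p of Ywhah was 0.0862. Ppp1r16b, which directs protein phosphatase 1 to its substrates, had 213 to 272 CPM in Het-DMSO and 305 to 339 CPM in Wt-DMSO. Over all libraries the log2 difference was -0.50 (SE 0.11, edgeR adjusted p 0.451), and without 409 and 411 -0.63 (SE 0.07, adjusted p 0.0157). Clmn, an actin-binding membrane protein, had 176 to 244 CPM against 264 to 280 CPM. The log2 difference was -0.47 (SE 0.12, edgeR adjusted p 0.616) over all libraries and -0.58 (SE 0.07, adjusted p 0.0157) without 409 and 411. For both, 409 was the Het-DMSO library nearest to the wild type.

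Muc3a, a mucin of the cell surface, had 2.81 to 5.75 CPM in Het-DMSO and 9.55 to 15.2 CPM in Wt-DMSO. Its log2 difference came to -1.64 (SE 0.25, edgeR adjusted p 0.0733) with all libraries and to -1.82 (SE 0.23, adjusted p 0.0199) without 409 and 411. Ccdc63, a coiled-coil protein, had 0.252 CPM in 411, 2.25 to 4.90 CPM in the other Het-DMSO libraries and 8.59 to 10.6 CPM in Wt-DMSO. Over all libraries the log2 difference was -1.96 (SE 0.55, edgeR adjusted p 0.616), and without 409 and 411 -2.08 (SE 0.22, adjusted p 0.00765). Car9, Cntnap5b, 4930447F24Rik and Dnase2a were outside the rule for named genes and are named after their values were seen, since they complete the 18. Car9, a carbonic anhydrase of the cell surface, had 0.0505 to 1.45 CPM against 4.61 to 6.38 CPM. Dnase2a, which digests DNA in lysosomes, had 4.19 to 9.98 CPM against 11.9 to 13.8 CPM. The adjusted p of these 4 genes from edgeR without 409 and 411 was 0.0468 each, and none passed over all libraries.

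Of the 18 genes, 3 are outside the protein-coding class. Gm39465 is a long intergenic RNA on chromosome 9. Gm39465 was at 0.985, 0.0505, 2.55 and 2.17 CPM in Het-DMSO 409, 411, 420 and 429, and at 21.9, 31.2, 31.4 and 36.5 CPM in Wt-DMSO 413, 425, 426 and 431. The log2 difference was -4.41 (SE 0.74, edgeR adjusted p 0.124) over all libraries and -3.70 (SE 0.52, adjusted p 0.0444) without 409 and 411. Gm15083 lies antisense to Atp2b2, the plasma membrane calcium pump of Purkinje cells. Gm15083 was at 0.172, 0, 0.187 and 0.167 CPM in Het-DMSO 409, 411, 420 and 429, and at 1.75, 1.27, 1.54 and 2.95 CPM in Wt-DMSO 413, 425, 426 and 431. At 0 to 66 reads per library it was the least covered of the 18, and 5.21% to 6.47% of gene reads fell on the strand not counted. Its log2 difference came to -3.75 (SE 0.55, edgeR adjusted p 0.0733) with all libraries and to -3.38 (SE 0.50, adjusted p 0.0492) without 409 and 411. Atp2b2 itself had a log2 difference of -0.31 (edgeR unadjusted p 0.145) over all libraries and -0.39 (unadjusted p 0.00681) without both. 4930447F24Rik, which overlaps Bsn on the opposite strand, had at most 0.911 CPM in Het-DMSO, with 0 reads in 411, and 4.75 to 8.37 CPM in Wt-DMSO.

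Further genes had groups that did not overlap over all 8 libraries and are named by their rank of p, although none passed the threshold in either fit. Higher in level in Het-DMSO were Ankdd1a (log2 difference 1.91 over all libraries and 1.29 without 409 and 411), Galr1, a galanin receptor (1.25 and 1.16), Fam163b (1.28 and 0.99), Slc8a3, a sodium-calcium exchanger (0.79 and 0.58), and the transcription factor Ebf4 (0.91 and 0.56). Lower in level were Gcnt1, an enzyme of mucin-type glycans (-1.68 and -1.62), Dap (-0.999 and -0.82) and Rmi2, part of a complex that resolves DNA crossovers (-2.05 and -2.04). Their adjusted p from edgeR ranged from 0.0733 to 0.191 over all libraries and from 0.122 to 0.276 without 409 and 411.

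The Purkinje cell list held 20 genes, all of them tested. At an unadjusted p under 0.05 the background was 4.77% of all genes higher and 2.34% lower over all libraries, and 2.07% and 3.76% without both. Over all libraries 0 Purkinje genes were higher and 5 lower at that level, and without 409 and 411 0 were higher and 13 lower. In both fits 0 passed the adjusted threshold with edgeR. DESeq2 put 1 past it over all libraries and 4 without both, each lower, and limma with library quality weights put 3 lower over all libraries. The shares of all genes that these put lower were 0.144% and 0.701% with DESeq2 and 0.361% with limma. The limma weights were 0.0412 for 409 and 0.118 for 411, against 1.26 to 2.49 for the other libraries compared. That fit thus leans little on 409 and 411 and comes close to the fit without both, here and for the lists below. The median log2 difference was -0.71 over all libraries and -0.55 without both, beside 0.05 and -0.01 over all genes tested. Without both, 20 of 20 differences were below 0. All 4 Het-DMSO libraries lay below all 4 Wt-DMSO libraries for 9 of the 20 and above for 0, where 475 (2.45%) and 376 (1.94%) of all genes did. Libraries 420 and 429 lay below all of Wt-DMSO for 15 of the 20 and above for 0, where 9.07% and 8.29% of all genes did. With a sex covariate 3 were lower at an unadjusted p under 0.05 over all libraries, where 1.39% of all genes were. Without both, 7 were lower with it, where 3.03% of all genes were, and the median was -0.57. The summed level was 9791, 2040, 8592 and 7285 CPM in 409, 411, 420 and 429, and 11075 to 11684 CPM in Wt-DMSO. In a bulk library, fewer Purkinje cells and less RNA per Purkinje cell cannot be told apart. Granule cell genes were low in 411 too, and the part of 411's tissue makeup in the Purkinje result over all libraries was not tested. Without 411 and 409 the granule cell median was -0.03, which is a description only, since 411 was set aside for its granule cell genes. The summed level of 12 astroglia genes was also lower in every Het-DMSO library, at 2167 to 2643 CPM against 2791 to 3011 CPM in Wt-DMSO, and its part in the Purkinje result was not tested.

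**Figure D3:**
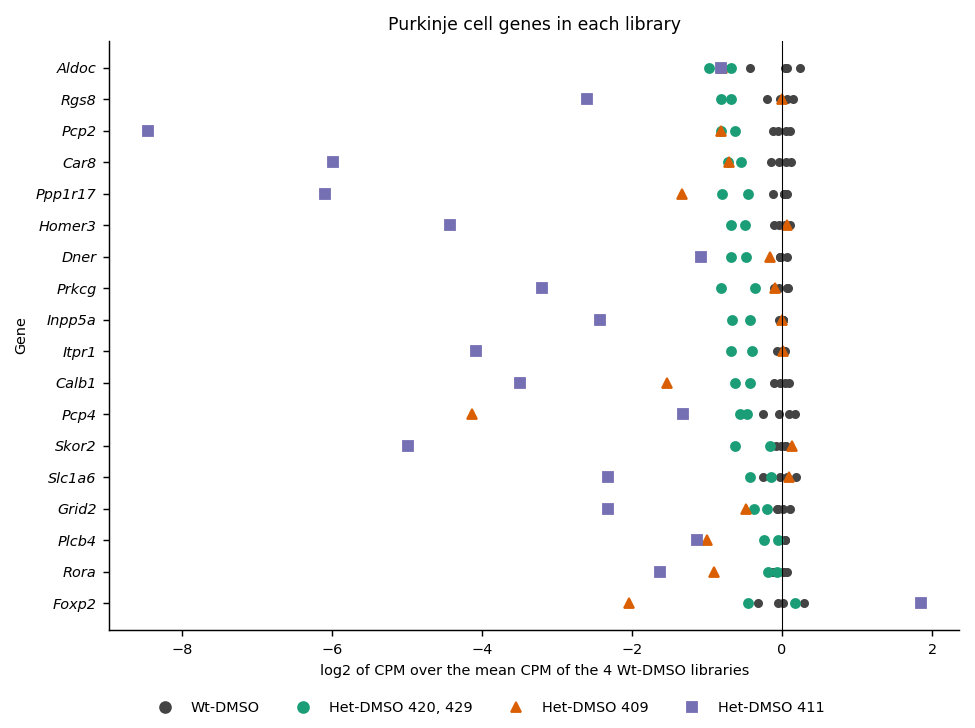
Log2 of each library's CPM over the mean of the 4 Wt-DMSO libraries (horizontal axis) for 18 of the 20 Purkinje cell genes (rows, ordered by their difference without 409 and 411), 1 point per library. The other 2 genes of the list are counted in the text but not drawn. For most genes drawn, libraries 420 and 429 both lie left of 0, 411 (squares) ranges furthest to the left, and 409 (triangles) lies on both sides.

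Among single Purkinje genes, Aldoc had the smallest p. It codes for aldolase C, the glycolytic enzyme also called zebrin II that marks stripes of Purkinje cells, and astrocytes make it as well. Aldoc was at 620.1, 617, 677 and 554 CPM in Het-DMSO 409, 411, 420 and 429, and at 804, 1281, 1137 and 1118 CPM in Wt-DMSO 413, 425, 426 and 431. All 4 Het-DMSO libraries were close to each other and below the lowest wild-type library, 413. For Aldoc the log2 difference came to -0.81 (edgeR unadjusted p 0.000245, adjusted p 0.259) with all libraries and -0.83 (unadjusted p 0.000901, adjusted p 0.211) without both. Dner, a Notch-related membrane protein of Purkinje dendrites, had 199 to 375 CPM against 414 to 439 CPM. With all libraries its log2 difference was -0.56 (edgeR unadjusted p 0.00929, adjusted p 0.616), and without both -0.58 (unadjusted p 0.00103, adjusted p 0.214). Calb1, the calcium buffer calbindin that marks every Purkinje cell, was low in 411 and also in 409. Calb1 was at 139, 35.6, 299.7 and 260.1 CPM in Het-DMSO 409, 411, 420 and 429, and at 415, 373, 394 and 427 CPM in Wt-DMSO 413, 425, 426 and 431. Calb1 had a log2 difference of -1.13 (edgeR unadjusted p 0.0349, adjusted p 0.616) over all libraries and of -0.53 (unadjusted p 0.0407, adjusted p 0.825) without both.

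The other Purkinje genes that follow were named after their values were seen. Pcp2, a modulator of G protein signalling that is nearly specific to Purkinje cells, was near 0 in 411. Pcp2 was at 110.5, 0.555, 126 and 110.5 CPM in Het-DMSO 409, 411, 420 and 429, and at 203, 179, 209 and 188 CPM in Wt-DMSO 413, 425, 426 and 431. For Pcp2 the log2 difference came to -1.16 (edgeR unadjusted p 0.19, adjusted p 0.633) with all libraries and -0.73 (unadjusted p 0.0157, adjusted p 0.622) without both. Car8, which inhibits IP3 binding to its receptor, had 12.4 CPM in 411, 474 to 536 CPM in the other Het-DMSO libraries and 707 to 855 CPM in Wt-DMSO. Rgs8, a regulator of G protein signalling, had 600 and 547 CPM in 420 and 429 but 963 CPM in 409, within the 839 to 1068 CPM of the wild type. Itpr1, the IP3 receptor, followed the same order, with 3504 and 2877 CPM in 420 and 429, 4659 CPM in 409 and 4405 to 4727 CPM in Wt-DMSO. Pcp4, a small calmodulin-binding protein, had 1.97 CPM in 409, below the 13.9 CPM of 411. Thus 409 was like the wild type for some Purkinje genes and far below it for others. Foxp2, a transcription factor that many other neurons also use, was highest in 411 at 36.8 CPM and lowest in 409 at 2.49 CPM, and had 7.47 to 12.5 CPM in 420, 429 and Wt-DMSO.

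The list of calcium signalling genes shares members with the Purkinje list, so the counts are not separate. Of its 20 genes 4 were lower and 0 higher at an unadjusted p under 0.05 over all libraries, and 12 lower and 0 higher without both. With a sex covariate 1 was lower over all libraries and 7 without both, beside 1.39% and 3.03% of all genes. The medians were -0.53 and -0.42, and 0 passed the adjusted threshold with edgeR in either fit, against 3 with DESeq2 without both and 2 with limma and library quality weights over all libraries, each lower. At an unadjusted p under 0.05 that limma fit put 13 of the 20 lower, beside 1028 of 19378 genes. All 4 Het-DMSO libraries lay below all of Wt-DMSO for 3 of the 20, against 2.45% of all genes. Libraries 420 and 429 did so for 14 of the 20, against 9.07% of all genes. The summed level was 13798, 3332, 10756 and 9289 CPM in 409, 411, 420 and 429, and 12821 to 13535 CPM in Wt-DMSO. Plcb3, a phospholipase C, had 18.3 to 61.0 CPM in Het-DMSO and 49.4 to 82.9 CPM in Wt-DMSO, with 409 inside the wild-type range. With all libraries its log2 difference was -0.81 (edgeR unadjusted p 0.0156, adjusted p 0.616), and without both -0.78 (unadjusted p 0.0019, adjusted p 0.284). Plcb4, the phospholipase C of Aldoc-negative Purkinje cells, was lowest in 409 and 411. Plcb4 was at 195, 178, 375 and 329 CPM in Het-DMSO 409, 411, 420 and 429, and at 400.0, 383, 399 and 374 CPM in Wt-DMSO 413, 425, 426 and 431. Plcb4 had a log2 difference of -0.53 (edgeR unadjusted p 0.0379, adjusted p 0.616) over all libraries and of -0.15 (unadjusted p 0.274, adjusted p 1.000) without both. Atp2a2, the calcium pump of the endoplasmic reticulum, had 988 and 944 CPM in 420 and 429 and 1184 to 1276 CPM in Wt-DMSO. Its log2 difference was -0.24 (edgeR unadjusted p 0.201) over all libraries and -0.37 (unadjusted p 0.00229) without both.

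Among 19 potassium and sodium channel genes, 2 were lower over all libraries and 4 without both at an unadjusted p under 0.05, with 0 higher, and the medians were -0.11 and -0.12. The list does not hold Kcnb2, the potassium channel gene described above as higher. With a sex covariate 1 was lower over all libraries and 2 without both, again beside 1.39% and 3.03% of all genes. Kcnma1, which codes for the large-conductance calcium-activated potassium channel of Purkinje firing, had the smallest p. Kcnma1 was at 179, 248, 281 and 247 CPM in Het-DMSO 409, 411, 420 and 429, and at 390.4, 338, 359 and 395 CPM in Wt-DMSO 413, 425, 426 and 431. The groups did not overlap, and 409 was lowest. For Kcnma1 the log2 difference came to -0.63 (edgeR unadjusted p 0.00102, adjusted p 0.535) with all libraries and -0.50 (unadjusted p 0.000834, adjusted p 0.208) without both. DESeq2 put 1 channel gene past the adjusted threshold over all libraries and 2 without both, limma with library quality weights 1, and edgeR 0 in either fit. Each was lower, and of all genes DESeq2 put 0.144% and 0.701% lower and limma 0.361%.

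The 24 genes of ionotropic glutamate, GABA and glycine receptors had medians of -0.06 and -0.07. At an unadjusted p under 0.05, 0 were called over all libraries, and 1 higher and 2 lower without both (1 and 1 with a sex covariate). Gria2, the AMPA receptor subunit that blocks calcium entry, had 618 and 558 CPM in 420 and 429 and 425 to 523 CPM in Wt-DMSO. It had 198 CPM in 409 and 360 CPM in 411. Its log2 difference was -0.10 over all libraries and 0.33 (edgeR unadjusted p 0.00614) without both, so its direction turned. Gria3 and Grik1, subunits of AMPA and kainate receptors, had log2 differences of -0.41 and -0.15 over all libraries and of -0.21 and -0.42 without both.

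Of 18 growth factor and neurotrophin genes, 1 was higher and 1 lower over all libraries at an unadjusted p under 0.05. Without both, 3 were higher and 1 lower (2 and 1 with a sex covariate). Of all genes 4.77% were higher and 2.34% lower over all libraries, and 2.07% and 3.76% without both. Igfbp5 was the one gene of the list past the adjusted threshold without both. Igfbp4, another binding protein of insulin-like growth factors, had a difference of the other sign. Igfbp4 was at 16.4, 14.8, 12.3 and 11.3 CPM in Het-DMSO 409, 411, 420 and 429, and at 9.38, 9.16, 4.79 and 6.89 CPM in Wt-DMSO 413, 425, 426 and 431. The groups did not overlap. With all libraries its log2 difference was 0.86 (edgeR unadjusted p 0.00387, adjusted p 0.616), and without both 0.63 (unadjusted p 0.0396, adjusted p 0.819). Ntf3 codes for neurotrophin-3, which granule cells make. Ntf3 was at 5.44, 0.808, 6.85 and 5.84 CPM in Het-DMSO 409, 411, 420 and 429, and at 1.39, 3.44, 3.40 and 2.19 CPM in Wt-DMSO 413, 425, 426 and 431. Library 411 was below the wild type and the other Het-DMSO libraries above it. Ntf3 had a log2 difference of 0.86 (edgeR unadjusted p 0.117, adjusted p 0.616) over all libraries and of 1.26 (unadjusted p 0.00324, adjusted p 0.351) without both. Vegfa, a vascular growth factor studied in SCA1, had 54.1 CPM in 411, 77.8 to 89.7 CPM in the other Het-DMSO libraries and 60.2 to 71.9 CPM in Wt-DMSO, with a log2 difference of 0.16 over all libraries and 0.22 without both.

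The list of ataxin-1 partners and Capicua targets held 16 genes, and Ywhah, described above, is not one of them. Of the 16, 1 was higher and 0 lower at an unadjusted p under 0.05 over all libraries, and 0 either way without both, with medians of 0.19 and 0.03. Adding a sex covariate, 2 were higher over all libraries and 1 without both, where 297 of 19378 and 435 of 20105 genes were. The gene called over all libraries without that covariate was Dusp4, a phosphatase of the MAP kinase pathway. Dusp4 was at 29.1, 7.77, 11.6 and 9.30 CPM in Het-DMSO 409, 411, 420 and 429, and at 7.78, 8.95, 6.98 and 5.15 CPM in Wt-DMSO 413, 425, 426 and 431. Library 409 was far above the others, and 411 was within the wild-type range. For Dusp4 the log2 difference came to 1.01 (edgeR unadjusted p 0.0207, adjusted p 0.616) with all libraries and 0.52 (unadjusted p 0.0553, adjusted p 0.879) without both. Of 10 genes with disease-linked CAG repeats, Ppp2r2b, a regulatory subunit of protein phosphatase 2A, was the one called at that level over all libraries. Ppp2r2b was at 47.1, 78.4, 39.5 and 36.7 CPM in Het-DMSO 409, 411, 420 and 429, and at 34.5, 32.5, 29.3 and 27.8 CPM in Wt-DMSO 413, 425, 426 and 431. All Het-DMSO libraries were above Wt-DMSO, and 411 was the highest. With all libraries its log2 difference was 0.70 (edgeR unadjusted p 0.00854, adjusted p 0.616), and without both 0.29 (unadjusted p 0.0744, adjusted p 0.905).

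Other cell types bear on how the tissue pieces compare. The 17 granule cell genes had 0 called either way over all libraries at an unadjusted p under 0.05, and 1 higher without both. It was Calb2, the calcium buffer calretinin, with 300 and 285 CPM in 420 and 429 and 182 to 214 CPM in Wt-DMSO. Calb2 had a log2 difference of 0.66 (edgeR unadjusted p 0.125, adjusted p 0.618) over all libraries and of 0.57 (unadjusted p 0.0252, adjusted p 0.722) without both. No granule cell gene was called in either fit with a sex covariate. Since 411 was set aside for its granule cell genes, their values without it are a description. Of 12 astroglia genes, whose summed levels did not overlap between the groups, 0 were called over all libraries, and 1 was lower without both, which a sex covariate reduced to 0. Gdf10, a Bergmann glia growth factor, had 1.62 to 96.9 CPM in Het-DMSO and 103 to 176 CPM in Wt-DMSO, and Slc1a3, a glutamate transporter, 179 to 672 CPM against 709 to 841 CPM. Both had 411 as the lowest library and groups that did not overlap. They were the 2 of the 12 with all Het-DMSO libraries below Wt-DMSO, where 2.45% of all genes were. The list median was -0.14 over all libraries and -0.15 without both, where 4 of the 12 differences were above 0. The log2 difference of Gdf10 was -1.23 over all libraries and -0.75 (edgeR unadjusted p 0.0338) without both, and that of Slc1a3 -0.57 and -0.31 (unadjusted p 0.141).

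The microglia median was 0.52 over all libraries and 0.11 without both, and the oligodendrocyte median 0.62 and -0.01, with 411 the highest library of both lists. C1qc, a complement subunit of microglia, was the single gene of the 2 lists called at an unadjusted p under 0.05, with a log2 difference of 0.64 over all libraries and 0.30 without both. The midbrain median was 2.80 over all libraries, with 1 gene higher at that level, and -0.30 without both, with 0. Of the microglia, oligodendrocyte and midbrain genes 0 were called in either fit with a sex covariate. Interneuron genes had 0 called in either fit, with medians of 0.10 and -0.16. Choroid plexus genes had 0 called, with a median of 0.21 and 0.92, and of -2.004 without 429, while with a sex covariate 1 was higher without both. Library 429 held 3047 CPM of that list and Wt-DMSO 99.5 to 1785 CPM. Red blood cell genes had 0 called, with medians of 0.08 and 0.95, and of -0.36 without 420 and -0.45 without 429, while limma with library quality weights put 4 of these 5 higher at an unadjusted p under 0.05 (4.1% of all genes), with a median of 1.83. Endothelial and pericyte genes had 0 called, with 0.12 and 0.03, and with a sex covariate 1 was higher over all libraries. Forebrain genes had 0 called, with a median of -0.12 in both fits.

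**Figure D4:**
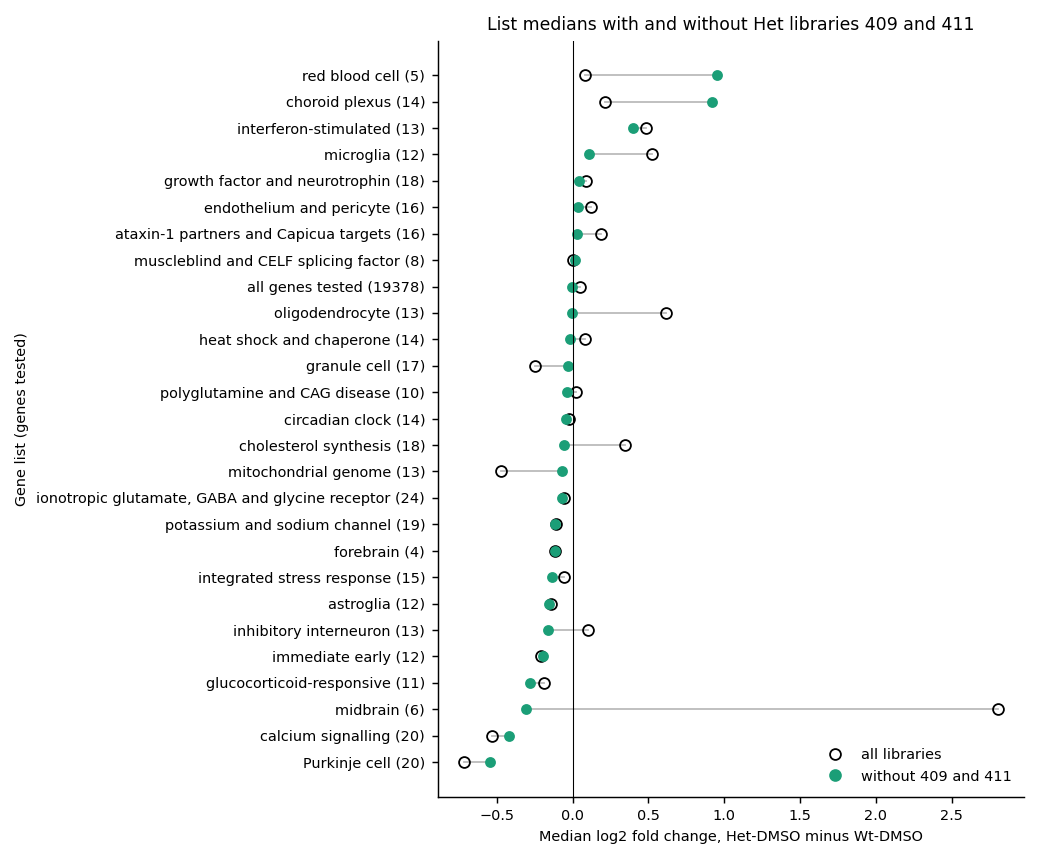
Median log2 difference, Het-DMSO minus Wt-DMSO (horizontal axis), of each gene list that had genes tested over all libraries, with their number, with all libraries (open circles) and without 409 and 411 (filled circles). The hindbrain Hox list, with 0 genes tested over all libraries, is not drawn. Of the lists drawn the Purkinje cell list is lowest without both, at -0.55, and the midbrain list moves from 2.80 to -0.30.

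Immediate early genes had 1 of 12 lower over all libraries at an unadjusted p under 0.05, and 1 higher and 2 lower without both (1 and 1 with a sex covariate). Egr1, a transcription factor induced by neuronal activity, was the first. Egr1 was at 26.5, 33.3, 24.4 and 36.7 CPM in Het-DMSO 409, 411, 420 and 429, and at 58.5, 43.9, 50.6 and 51.2 CPM in Wt-DMSO 413, 425, 426 and 431. The groups did not overlap. For Egr1 the log2 difference came to -0.76 (edgeR unadjusted p 0.00771, adjusted p 0.616) with all libraries and -0.74 (unadjusted p 0.031, adjusted p 0.769) without both. Without both, Ier2, another immediate early gene, had a log2 difference of -0.77 and Jun 0.31, and over all libraries they had -0.62 and 0.29. Of 11 glucocorticoid-responsive genes 1 was lower over all libraries, Mt1, a metallothionein that binds zinc and copper. Mt1 was at 50.01, 84.1, 96.3 and 133 CPM in Het-DMSO 409, 411, 420 and 429, and at 142, 147, 189.6 and 240.0 CPM in Wt-DMSO 413, 425, 426 and 431. The lowest was 409 and the groups did not overlap. With all libraries its log2 difference was -0.98 (edgeR unadjusted p 0.00818, adjusted p 0.616), and without both -0.65 (unadjusted p 0.0623, adjusted p 0.889). Integrated stress response genes had 1 of 15 lower over all libraries and 2 without both (1 with a sex covariate), with medians of -0.06 and -0.13. Atf5, a transcription factor of that response, had 12.2 to 19.0 CPM against 19.5 to 25.5 CPM. Atf5 had a log2 difference of -0.37 (edgeR unadjusted p 0.0331, adjusted p 0.616) over all libraries and of -0.27 (unadjusted p 0.0453, adjusted p 0.836) without both.

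Heat shock and chaperone genes had 1 of 14 lower in each fit, and over all libraries it was Bag3, a co-chaperone, with a log2 difference of -0.60 (edgeR unadjusted p 0.0259), against -0.33 (unadjusted p 0.209) without both. With a sex covariate 0 of the list were called in either fit. Interferon-stimulated genes had 0 called in either fit, with medians of 0.48 and 0.40, although 13 of 13 differences were above 0 without both, as were 9774 of 20105 over all genes. Libraries 420 and 429 lay above all of Wt-DMSO for 6 of the 13, against 8.29% of all genes. All 4 Het-DMSO libraries did so for 0 of the 13, against 1.94% of all genes. The summed level was 49.2, 87.1, 73.0 and 86.2 CPM in 409, 411, 420 and 429, and 55.6 to 70.1 CPM in Wt-DMSO. Limma with library quality weights put 4 of the 13 higher at an unadjusted p under 0.05, beside 4.1% of all genes. DESeq2 put 1 of the 13 higher over all libraries, near its share of all genes, 1247 of 19378. Mitochondrially encoded genes had 0 called, with a median of -0.47 over all libraries and -0.07 without both, where 409 was left out. Cholesterol synthesis genes had 3 of 18 higher over all libraries and 1 higher without both, with medians of 0.34 and -0.06. With a sex covariate 1 was higher over all libraries and 0 without both, where 297 of 19378 and 435 of 20105 genes were. Lss, lanosterol synthase, had a log2 difference of 0.36 and 0.17, while the regulator Srebf2 (0.49 and 0.07) was highest in 409 and 411. Circadian clock genes had 0 of 14 called over all libraries and 2 higher without both, and with a sex covariate 0 in either fit. Of 8 muscleblind and CELF splicing factors, which bind expanded repeats or compete for their targets, 1 was higher over all libraries, Celf5, with a log2 difference of 0.43, and 0 were called without both, where Celf5 was at 0.11. Under a sex covariate 0 of the 8 were called over all libraries and 1 was higher without both.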

How the data were processed

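RNA was depleted of ribosomal RNA and sequenced from directional libraries (500 ng of input, 13 amplification cycles, paired reads of 100 bases), per the labels' protocols. The deposited tables, 1 for each library, hold raw read counts by gene. STAR 2.7.10a, FastQC 0.11.9 and the build GRCm39 (mm39) are named in the submitters' processing notes, and the annotation release is not given in the sources used here. The authors did not normalize these counts. The reverse-strand column was used here. Of 55401 gene IDs 55141 had a symbol in GENCODE M21, and 260 had none. Unmapped (3.70% to 6.53% of reads in the 8 libraries), multimapping (4.08% to 7.01%), unassigned (44.7% to 54.6%) and ambiguous reads (0.761% to 1.33%) stayed out of library sizes and tests.

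Differences were tested with edgeR 4.0.16 in R 4.3.3, with filterByExpr, TMM scaling, 1 quasi-likelihood fit of all 12 libraries with 1 coefficient per group, and two-sided tests with Benjamini-Hochberg adjustment over every gene kept. The same fit without 409 and 411 has 10 libraries. Levels are CPM on TMM-scaled sizes. Atxn1 was also compared by an exact permutation test of log2 CPM (prior count 2) over 70 assignments, which cannot give a p below 0.0286. DESeq2 1.42.0 and limma 3.58.1 served as alternatives, as did other scaling, filters, strand, covariates and samples. Animals were separate mice, and no run or batch is named in the labels. Sample-sheet numbers in the names of the deposited files recur between libraries, so more than one sample sheet was used, and which libraries shared a run is not known.

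The comparison and the 27 gene lists were chosen with earlier results of these data known. Named by rule were every gene past the threshold over all libraries, Atxn1, up to 8 genes per direction in each fit with the smallest p, at least 1 CPM on average in the higher group and groups that do not overlap, and up to 4 genes of each list with the smallest p. Other list genes in the text were chosen after their values were seen. A few list genes that count in the totals are not reported here by name.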

Additional observations from a re-analysis of the deposited data

Results flagged for a closer look

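Within each group of 4 libraries, 106 sets of values were checked for a lowest or highest library set apart from the other 3, and 11 were. Chance marks about 1 in 20, or 5.3 of 106. The low mitochondrial share of 409 was known before these checks, so the 11 are a list and no excess over chance is read from them. Library 409 was set apart by its mitochondrial share of 0.0795% of gene reads, with the next Het-DMSO library at 2.13%, and by 244 CPM of Clmn, with the next at 184 CPM. Library 411 was set apart by 211 CPM summed over midbrain genes (next 19.0 CPM), 1765 CPM over ataxin-1 partners and Capicua targets (next 2552 CPM), 3517 CPM over heat shock and chaperone genes (next 2367 CPM) and 0 CPM of Gm15083 (next 0.167 CPM). Library 429 held 3047 CPM of choroid plexus genes, with the next Het-DMSO library at 517 CPM.

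In the Wt-DMSO group, 426 had the highest granule cell sum, 10046 CPM (next 8993 CPM), and 431 the highest red blood cell sum, 53.9 CPM (next 7.51 CPM). Library 431 also had the lowest level of Igfbp5, 161 CPM (next 192 CPM). Library 413 had the lowest sum of growth factor and neurotrophin genes, 2247 CPM (next 2711 CPM).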

How the results depend on the processing

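The count of 1 gene past the threshold became 43 with DESeq2, 98 with library quality weights in limma, 2 with library size as a covariate, 18 without 409 and 411, 8 at an adjusted p under 0.1 and 1377 at an unadjusted p under 0.05. It was 0 with edgeR on only the 8 libraries compared, where 713 genes had an unadjusted p under 0.05. Leaving out 1 library gave 0 to 9 genes, with 4 without 409, 9 without 411 and 0 without 429 (2760 at an unadjusted p under 0.05, edgeR). The other scaling, filters, strand, robust fit and sex covariate left it at 1.

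The 18 genes found without 409 and 411 were recounted by alternatives chosen after seeing the data. DESeq2 gave 180, a sex covariate 6, and only the libraries compared 64. RLE factors gave 19 and unstranded counts 14. Removing 1 more library gave 2 to 8 genes: 7 without 413, 5 without 420, 8 without 425, 6 without 426, 2 without 429 and 7 without 431, and a lone Het-DMSO library is then assumed to vary like the other groups. The log2 difference of Atxn1 stayed above 0 and short of the threshold in its 19 alternatives.

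Of the list genes whose log2 difference the text gives, 2 changed sign, neither past the threshold over all libraries. Foxp2 (0.51 over all libraries) was at -0.078 with quality weights, -0.10 with the library size covariate, -0.12 without 409 and 411 and -0.53 without 411, and leaving out 1 library gave -0.53 to 0.85. Gria2 (-0.10) was at 0.32 with quality weights, 0.33 without 409 and 411 and 0.14 without 409, and leaving out 1 library gave -0.32 to 0.14. No paired analysis was possible because animal numbers do not recur between the groups.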
